A study of Homo sapiens with 4 samples.

Results

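The genes described here encode the histone chaperones that carry and deposit histone H3, and they were chosen by name. They are HIRA, UBN1 and CABIN1 (the HIRA complex), ASF1A and ASF1B, DAXX and ATRX, CHAF1A and CHAF1B (the large and middle subunits of chromatin assembly factor 1, CAF-1) and NASP. All 10 were found among the 22679 named gene symbols of the deposited tables, on 14 lines. DAXX had 5 of these lines, 4 of them listed at 0 in every library, and no chaperone shared a line with another gene. All 10 reached 1 FPKM (a level in fragments scaled to transcript length and to the size of the library) in at least 1 library.

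The study measured poly(A) RNA of IMR90 cells, a commercially available human fetal lung fibroblast line, and each of its 4 groups is 1 library. The growing library came from cells carrying the empty retroviral vector pBabe, harvested at day 13. The oncogene-induced senescence (OIS) library came from cells carrying ER:RasV12, an inducible form of oncogenic H-Ras, given 10 nM tamoxifen for 8 days. The other two came from cells infected with a retrovirus for Flag-tagged cleaved H3.3 (H3.3cs1, a histone H3.3 lacking part of its tail), harvested at day 3 (early) and day 13 (late). All cells were at passage 16, and all carried a retroviral construct. The labels name senescence for both H3.3cs1 libraries as well (H3.3cs1-induced senescence, early and late time point). The comparisons ask how far the machinery that handles H3 differs between dividing fibroblasts, RAS-induced senescence and H3.3cs1-induced senescence. Because each group has 1 library, no difference has a replicate check and no p-value is given. The 3 comparisons with growing share 1 library. No empty-vector library of day 3 is analysed here, so in the early library the effects of the cleaved histone, of a fresh infection and of fewer days in culture cannot be told apart. The OIS cells had another construct than the growing cells and were also given tamoxifen. No day after infection is given for them, so their time since infection may differ as well. The effects of construct, tamoxifen and time cannot be told apart here either.

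Histone chaperones hold newly made or recycled histones until they are placed on DNA. CAF-1 deposits the canonical forms H3.1 and H3.2 behind the replication fork, where it is tethered by PCNA. HIRA, with UBN1 and CABIN1, deposits the replacement form H3.3 without replication, while DAXX and ATRX place H3.3 at telomeres and other repeats. ASF1A and ASF1B pass H3-H4 dimers on to HIRA and CAF-1, and NASP keeps the soluble pool of H3-H4. In senescent fibroblasts HIRA and ASF1A are known for their part in forming heterochromatin foci, and HIRA is known to gather in PML nuclear bodies.

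A few facts of the libraries bear on what follows. From the step between the lowest values, the depth was estimated at roughly 25.6 to 32.7 M fragments per library, so low values rest on few fragments. Between 47.4% and 57.9% of the summed FPKM lay in loci with no gene name. HRAS stood at 3153 FPKM in OIS and between 41.9 and 49.8 in the other libraries, which fits the OIS label. H3F3B, one of the 2 main genes of H3.3, stood at 105, 90.5, 229 and 450 FPKM across growing, OIS, early and late, and H3F3A at 190, 236, 130 and 132. Whether RNA of the H3.3cs1 construct adds to these values was not tested. All 11 fibroblast markers with a line of their own were above 1 FPKM in every library, with a summed level of 10651, 4919, 6112 and 11217 FPKM in the same order. Of 8 epithelial markers 3 reached 1 FPKM (KRT8, KRT18 and KRT19, their sum with the others 18.5 to 184 FPKM by library), while KRT5 and NKX2-1 were listed at 0, EPCAM was at most 0.495 and CDH1 at most 0.116. The 7 leukocyte markers summed to at most 0.663 FPKM, and the 8 endothelial markers to 22.1 in OIS and at most 3.09 elsewhere. From growing to OIS, CLDN5 went from 0.178 to 11.6 FPKM, TIE1 from 0.631 to 4.05 and ROBO4 from 1.19 to 4.47. TEK stayed within 2-fold between these libraries. PECAM1, KDR and VWF were below 1 FPKM in every library, and CDH5 was listed at 0 in all 4 libraries. The part of these shifts in the differences below was not tested. In such bulk samples, fewer cells expressing a gene and less RNA per cell cannot be told apart.

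ASF1B and CHAF1B fell against growing cells in OIS, early and late, CHAF1A and NASP fell in early and late, and DAXX rose in OIS. HIRA, UBN1, CABIN1, ASF1A and ATRX did not reach a 2-fold difference from growing in any library. The words rose and fell are kept for differences of at least 2-fold on the log2(FPKM + 1) scale, which understates the change of low genes. Thus 2 of the 10 fell and 1 rose in OIS, and 4 fell and 0 rose in early and in late, comparisons that share the growing library. Of all 12183 genes compared (those of at least 1 FPKM in at least 1 library), 8.17% fell and 9.13% rose in OIS. In early 3.96% fell and 1.4% rose, and in late 5.47% fell and 3.51% rose. The count of chaperones that rose in OIS is thus near the share of all genes. The median log2 difference of the 10 chaperones was -0.55 in OIS, -0.43 in early and -0.57 in late, beside 0.03, -0.02 and -0.04 over all genes compared.

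**Figure D1:**
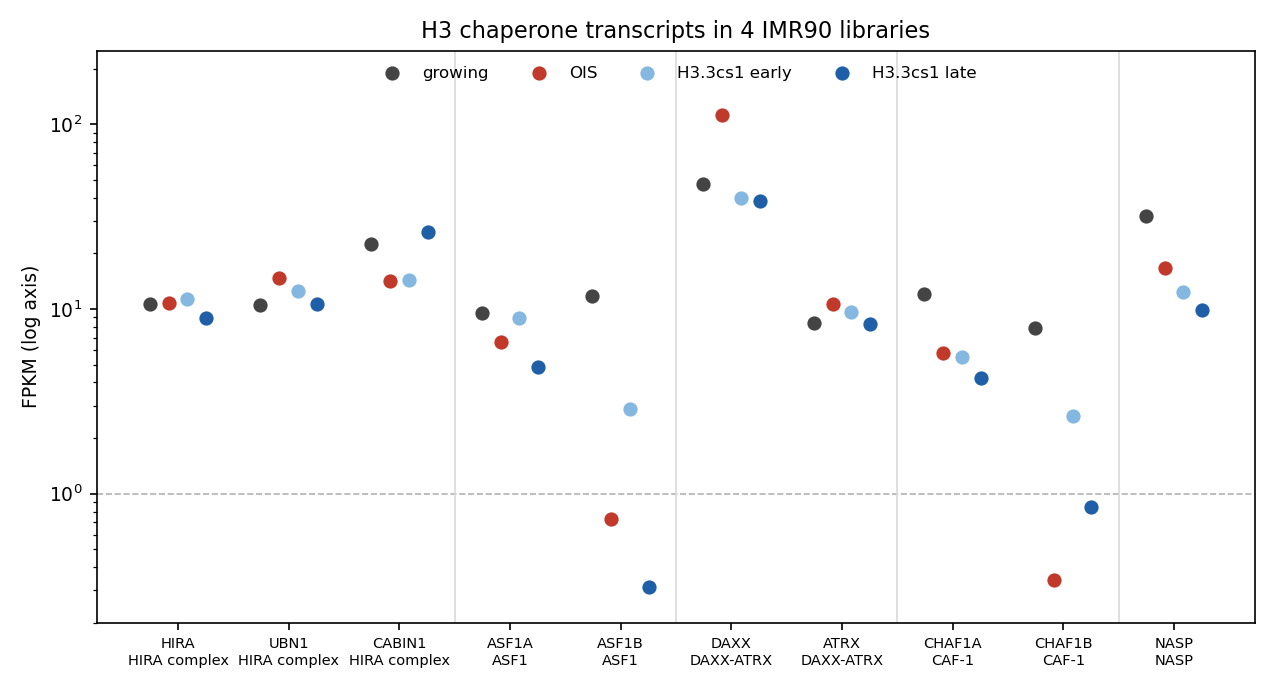
FPKM of the 10 chaperone genes (log axis) in each of the 4 libraries, 1 point per library, with the genes grouped by complex and a dashed line at 1 FPKM. ASF1B and CHAF1B drop below 1 in OIS and H3.3cs1 late, DAXX is highest in OIS, and the HIRA complex and ATRX stay between 8.29 and 26.2.

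**Figure D2:**
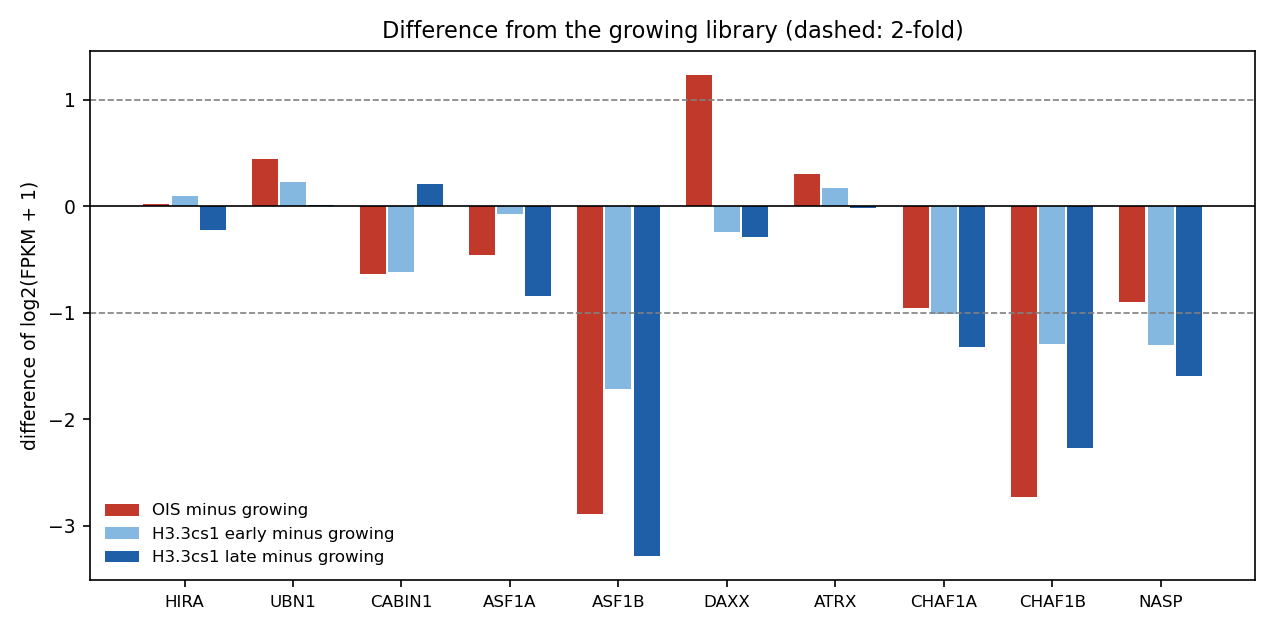
Difference of each chaperone from the growing library on the log2(FPKM + 1) scale, 1 bar per library, with dashed lines at 2-fold. On this scale ASF1B shows the deepest bar in each library, from -1.72 in H3.3cs1 early to -3.29 in H3.3cs1 late, and DAXX has the only bar above 1 (1.23, in OIS).

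In growing cells DAXX was the most abundant of the 10 transcripts at 47.3 FPKM, followed by NASP at 32.0 and CABIN1 at 22.6. CHAF1A, ASF1B, HIRA, UBN1, ASF1A, ATRX and CHAF1B lay close together, from 12.1 down to 7.90 FPKM. With 1 library, neighbours in that run have no measured spread to set them apart. DAXX kept the first place in all 4 libraries, and ASF1B and CHAF1B held the last 2 places in OIS, early and late.

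ASF1B, the ASF1 paralog known to be tied to cell division, fell furthest of the 10 against growing in OIS, early and late, except that CHAF1B fell further in OIS with a pseudocount of 0.1. It stood at 11.8 FPKM in growing cells, 0.730 in OIS, 2.89 in early H3.3cs1 and 0.312 in late H3.3cs1. The growing library was the highest, early was intermediate, and OIS and late were the lowest. On the log2(FPKM + 1) scale it fell 7.40-fold in OIS and 9.76-fold in late, and by a log2 difference of -1.72 in early. With a pseudocount of 0.1 in place of 1 the falls were 14.3-fold in OIS, 3.99-fold in early and 28.9-fold in late. Using the longest annotated coding transcript, the value in late rests on roughly 16 fragments (95% Poisson interval 9.1 to 26.0, counting error only) and that in OIS on roughly 40 (28.6 to 54.5), against roughly 796 in growing. The order of OIS and late is therefore less firmly fixed than the distance of both from growing. The share of all genes compared with a lower difference than ASF1B was 0.48% in late, 1.05% in OIS and 1.16% in early.

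ASF1A, the paralog known to work with HIRA, stood at 9.49 FPKM in growing cells, 6.62 in OIS, 8.96 in early H3.3cs1 and 4.86 in late H3.3cs1. None of these differences from growing reached 2-fold, and the largest was 1.79-fold lower, in late. The balance between the paralogs differed between libraries. ASF1B was 1.24 times ASF1A in growing, 0.322 times in early, 0.110 times in OIS and 0.0642 times in late. Such a ratio within a library does not depend on a factor that scales a whole library. The longest reading frames of the 2 transcripts have 615 and 609 bases and are 69.6% identical where they align, and the longest stretch shared by the whole transcripts is 12 bases, in the annotation used (GENCODE 29). The ASF1A annotation shares 5.44% of its exon bases with MCM9 on the opposite strand, and the handling of strand is not given.

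Both CAF-1 genes measured here were lower than in growing cells in every library, and CHAF1B more so than CHAF1A. CHAF1B, the p60 subunit, stood at 7.90 FPKM in growing cells, 0.340 in OIS, 2.63 in early H3.3cs1 and 0.845 in late H3.3cs1. It fell 6.64-fold in OIS, 2.45-fold in early and 4.82-fold in late. Of the 4 libraries OIS was the lowest, where ASF1B had its lowest value in late. With a pseudocount of 0.1 the falls were 18.2-fold, 2.93-fold and 8.46-fold. The value in OIS rests on roughly 41 fragments (29.4 to 55.6) and that in late on roughly 97 (78.7 to 118).

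CHAF1A, the p150 subunit that binds PCNA, stood at 12.1 FPKM in growing cells, 5.75 in OIS, 5.48 in early H3.3cs1 and 4.23 in late H3.3cs1. The 3 other libraries lay near one another, all below growing. It fell 2.02-fold in early and by a log2 difference of -1.32 in late, and was 1.94-fold lower in OIS. The early call ended after centring on the median of all genes (log2 difference -0.99) and after rescaling to the same sum (-0.79). In OIS the difference passed 2-fold after that rescaling (-1.15) and with a pseudocount of 0.1 (-1.06). The ratio of the subunits differed between libraries as well. CHAF1A was 1.53 times CHAF1B in growing, 2.08 times in early, 5.003 times in late and 16.9 times in OIS.

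Promoter sequences of 8 of the 10 genes were at hand in RefSeq (build GRCh38.p14, 250 bases before to 50 after the start), and those of ASF1B and the CAF-1 genes, which fell, are shown beside that of HIRA, which stayed within 2-fold. They were searched on both strands for E2F-like words, since E2F factors drive many genes of S phase, and for the cell cycle homology region (CHR), an element of genes that peak in G2 and mitosis. The E2F words were TTTGGCGC, TTTCCCGC, TTTCGCGC and TTTGCCGC, and the CHR word was TTTGAA. DAXX and ATRX had no promoter entry. For each of the 8 genes the first entry was used, while shares of all promoters are over every entry. An E2F word was found in 1 of the 8 promoters, that of HIRA, and in 3.31% of all 35116 promoters. The CHR word was found in 2 of the 8, 27 bases before the start of ASF1B and 19 after that of CABIN1, and in 15.2% of all promoters. After the sequences were seen, the E2F words were also searched without their first T, so that each longer word also counts as a shorter one. These were found in 3 of the 8 promoters, HIRA, CHAF1A and CHAF1B, and in 13% of all. The words in capitals below are the matches, each given 5′ to 3′ along the gene.
ASF1B (chr19:14136540-14136839, minus strand, CHR word in capitals): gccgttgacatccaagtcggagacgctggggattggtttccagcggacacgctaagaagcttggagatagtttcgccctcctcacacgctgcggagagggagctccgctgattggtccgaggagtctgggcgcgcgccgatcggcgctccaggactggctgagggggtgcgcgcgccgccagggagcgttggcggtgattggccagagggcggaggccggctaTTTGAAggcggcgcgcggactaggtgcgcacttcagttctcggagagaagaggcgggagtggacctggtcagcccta
CHAF1A (chr19:4402390-4402689, plus strand, 2 shortened E2F words): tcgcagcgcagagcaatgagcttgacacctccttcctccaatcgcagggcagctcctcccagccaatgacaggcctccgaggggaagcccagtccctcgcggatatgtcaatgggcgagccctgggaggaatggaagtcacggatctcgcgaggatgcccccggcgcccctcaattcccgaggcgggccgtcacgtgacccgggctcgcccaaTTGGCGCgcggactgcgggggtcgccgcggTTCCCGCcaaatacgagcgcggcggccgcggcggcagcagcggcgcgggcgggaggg
CHAF1B (chr21:36385142-36385441, plus strand, 1 shortened E2F word, on the other strand): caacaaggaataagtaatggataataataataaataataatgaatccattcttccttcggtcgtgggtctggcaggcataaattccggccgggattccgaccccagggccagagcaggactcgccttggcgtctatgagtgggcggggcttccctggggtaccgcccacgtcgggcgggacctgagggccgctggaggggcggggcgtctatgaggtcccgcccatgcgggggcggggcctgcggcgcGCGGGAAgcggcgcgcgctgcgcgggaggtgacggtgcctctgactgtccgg
HIRA (chr22:19431684-19431983, minus strand, 1 E2F word): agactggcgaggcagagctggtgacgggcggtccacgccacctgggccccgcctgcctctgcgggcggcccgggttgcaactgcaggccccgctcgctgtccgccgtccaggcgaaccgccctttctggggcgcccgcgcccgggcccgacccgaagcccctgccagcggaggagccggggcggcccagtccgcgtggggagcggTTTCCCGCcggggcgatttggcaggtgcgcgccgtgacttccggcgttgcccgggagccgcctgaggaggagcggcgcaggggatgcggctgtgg
Along the gene, the shortened words begin 37 and 7 bases before the start of CHAF1A, and the longer word 45 before that of HIRA. The shortened word of CHAF1B begins 2 bases before the start and runs past it. The promoter of NASP, which fell in early and late, held none of these words and is not shown. Those of UBN1 and ASF1A, which stayed within 2-fold, held none either. The matches are of letters, not measured binding, and they occur both in genes that fell and in HIRA and CABIN1, which did not.

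NASP, which guards soluble H3-H4 from degradation, stood at 32.0 FPKM in growing cells, 16.7 in OIS, 12.3 in early H3.3cs1 and 9.91 in late H3.3cs1. All 3 other libraries lay below growing, and late was the lowest. It fell 2.47-fold in early and 3.02-fold in late. In OIS it was 1.86-fold lower, a difference that passed 2-fold after rescaling to the same sum (log2 difference -1.12) and after quantile normalization (-1.02).

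The HIRA complex kept its levels within 2-fold of growing. HIRA, which gives the complex its name, stood at 10.6 FPKM in growing cells, 10.8 in OIS, 11.4 in early H3.3cs1 and 8.96 in late H3.3cs1. Its largest difference from growing was 1.17-fold lower, in late. UBN1, which reads the H3.3-specific residues, stood at 10.5 FPKM in growing cells, 14.6 in OIS, 12.5 in early H3.3cs1 and 10.6 in late H3.3cs1, at most 1.35-fold from growing. The 2 transcripts kept close to one another, with UBN1 between 0.992 and 1.35 times HIRA. In the annotation at hand 66.5% of the exon bases of HIRA are shared with C22orf39 on the same strand, and how fragments were divided between these 2 lines is not given.

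CABIN1, the remaining subunit, split the libraries into pairs. It stood at 22.6 FPKM in growing and 26.2 in late, and at 14.2 in OIS and 14.4 in early. Against growing it was 1.55-fold lower in OIS and 1.53-fold lower in early, short of 2-fold. CABIN1 was 2.13 times HIRA in growing and 2.92 times in late, against 1.31 times in OIS and 1.27 times in early.

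DAXX, which binds H3.3-H4 directly, was the only chaperone that rose. It stood at 47.3 FPKM in growing cells, 113 in OIS, 39.8 in early H3.3cs1 and 38.5 in late H3.3cs1. OIS was set apart from the other 3, which lay within 1.23-fold of one another on the FPKM scale. The rise in OIS was 2.35-fold. It ended just short of 2-fold after rescaling to the same sum (log2 difference 0.998), a scaling that moved the median of all genes from 0.03 to -0.16 in OIS and from -0.02 to 0.19 in early. ATRX, the remodelling ATPase that partners DAXX, stood at 8.43 FPKM in growing cells, 10.6 in OIS, 9.58 in early H3.3cs1 and 8.29 in late H3.3cs1, at most 1.23-fold from growing. DAXX was 5.61 times ATRX in growing, 4.15 times in early, 4.64 times in late and 10.6 times in OIS. How fragments were assigned among the 5 lines of DAXX is not given, and 14.3% of its exon bases are shared with AL662820.1 on the same strand.

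**Figure D3:**
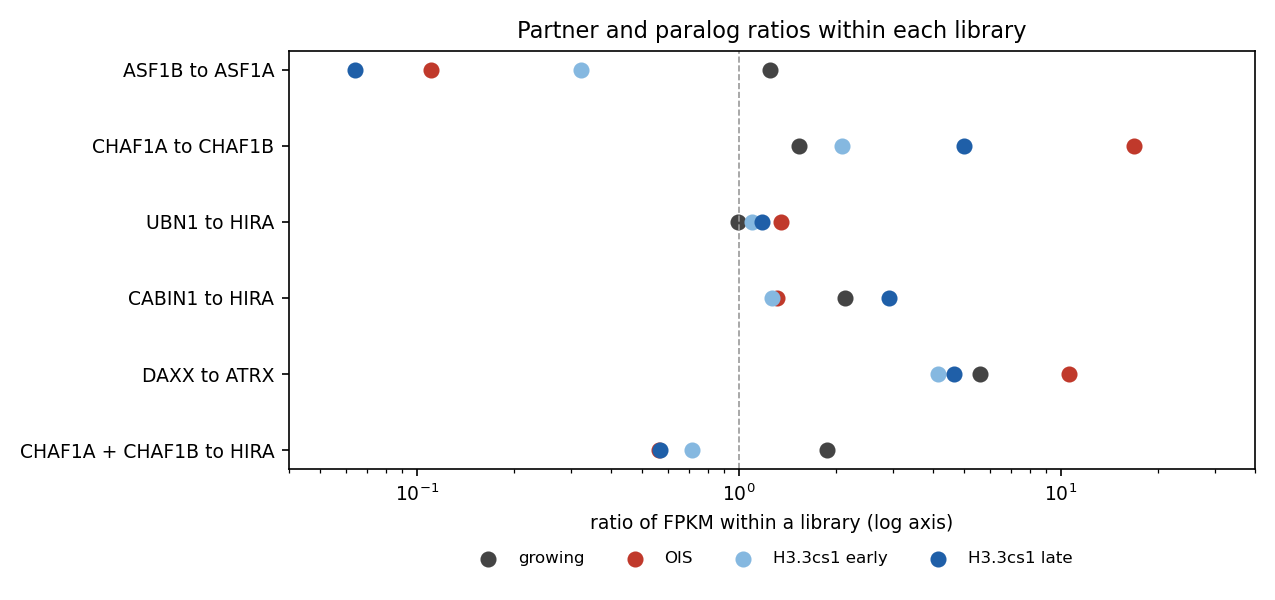
Ratio of the FPKM of partner or paralog genes within each library (log axis), 1 point per library, with a dashed line at 1. ASF1B to ASF1A moves from 1.24 in growing down to 0.0642 in H3.3cs1 late, CHAF1A to CHAF1B from 1.53 up to 16.9 in OIS, and UBN1 to HIRA stays near 1.

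Set against HIRA, the sum of CHAF1A and CHAF1B was 1.88 times as high in growing, 0.713 times in early, 0.563 times in OIS and 0.566 times in late. OIS and late had nearly the same value. The measure sets the sum of 2 genes against 1, so its place relative to 1 is not a comparison of single genes. In growing cells CHAF1A (12.1 FPKM) was slightly above HIRA (10.6) and CHAF1B (7.90) below it.

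From day 3 to day 13 of H3.3cs1, ASF1B fell further and no other chaperone changed by 2-fold. ASF1B went from 2.89 to 0.312 FPKM, a 2.96-fold fall. CHAF1B was 1.97-fold lower in late, and its difference passed 2-fold with a pseudocount of 0.1 (log2 difference -1.53) and after rescaling to the same sum (-1.16). CABIN1 was 1.77-fold higher and ASF1A 1.70-fold lower. The counts of 1 lower and 0 higher stand beside 3.4% of all genes lower and 5.47% higher, and 9 of the 10 chaperones lay below 0 (median -0.30, against -0.04 over all genes). CHAF1A and NASP had most of their distance from growing at day 3 already, with 1.24-fold and 1.22-fold between early and late.

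OIS and H3.3cs1 late were then compared directly. DAXX was 2.87-fold higher in OIS and no chaperone was 2-fold lower, beside 11.2% of all genes higher and 8.51% lower. The count of chaperones higher in OIS is thus near the share of all genes. CABIN1 was 1.79-fold lower in OIS than in late and NASP 1.62-fold higher. ASF1B, at 0.730 against 0.312 FPKM, and CHAF1B, at 0.340 against 0.845, differed in opposite directions. On the scale used these were 1.32-fold and 1.38-fold, and with a pseudocount of 0.1 they were 2.01-fold and 2.15-fold. These 4 values are below 1 FPKM, where a 2-fold difference cannot be reached on the log2(FPKM + 1) scale.

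The nearest partners of these genes outside the 10 were read next. RBBP4, the small CAF-1 subunit that also serves other chromatin complexes, stood at 27.4 FPKM in growing cells, 22.1 in OIS, 28.3 in early H3.3cs1 and 18.9 in late H3.3cs1, and did not reach 2-fold. UBN2, the paralog of UBN1, was between 1.04 and 1.75 FPKM in the 4 libraries. HJURP, the chaperone of the centromeric variant CENP-A, stood at 15.7, 0.5005, 2.88 and 0.861 FPKM across growing, OIS, early and late, and fell in all 3 against growing (log2 differences of -3.48, -2.11 and -3.17).

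Among 23 other histone chaperones and partners with a line of their own, none rose, and 2 fell in OIS, 2 in early and 8 in late, beside 8.17%, 3.96% and 5.47% of all genes compared. The count in OIS is thus near the share of all genes. Their medians were -0.30, -0.32 and -0.73, and those of OIS and early became -0.53 and -0.14 after rescaling to the same sum. HJURP and MCM2, the replicative helicase subunit that also binds H3-H4, were the 2 that fell in OIS and in early. MCM2 stood at 14.9, 1.26, 6.29 and 2.51 FPKM across growing, OIS, early and late, though its early call ended after rescaling to the same sum (log2 difference -0.90). DEK, a chromatin protein that handles H3.3, fell in late (-1.90), from 41.0 to 10.2 FPKM, as did ANP32E, which removes H2A.Z (-1.49), from 34.2 to 11.5.

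Genes of DNA replication, the process CAF-1 follows, were read as a further list. Of 24 such genes 23 fell in OIS, 18 in early and 24 in late, beside 8.17%, 3.96% and 5.47% of all genes compared. The medians were -1.96, -1.31 and -2.04. The early count became 14 after rescaling to the same sum and 21 with a pseudocount of 0.1. TK1 and RRM2, which supply nucleotides, TYMS, which makes thymidylate, and GINS2, a helicase partner, are named as the 4 genes with the largest difference in any of the 3 comparisons. The order differs by library. In OIS, MCM5 (-2.83), CDC6 (-2.61) and UHRF1 (-2.61) lay below TYMS (-2.56). In early, MCM7 (-2.01) and CDC45 (-1.95) lay below TYMS (-1.81) and GINS2 (-1.70), and CDT1 (-1.73) below GINS2. The genes outside the 4 are named here after their values were seen. TK1 went from 63.1 FPKM to 2.08 in OIS and 4.82 in late, and RRM2 from 62.5 to 3.74 and 2.41. Differences of ASF1B and CHAF1B in OIS and late (-2.27 to -3.29) lay below the median of this list, and those of CHAF1A and NASP (-0.90 to -1.60) above it. In early ASF1B (-1.72) lay below the median, while CHAF1B (-1.29) and NASP (-1.31) lay level with it and CHAF1A (-1.01) above it.

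Genes of PML nuclear bodies, where HIRA and DAXX can be found, were read as a list of 12. Of these, 1 rose in OIS and none passed 2-fold in early or late. Over all genes compared 9.13% rose in OIS, so the count of this list is near the share of all genes. SP100, a core protein of these bodies, rose from 27.6 to 75.7 FPKM in OIS (log2 difference 1.42), beside 33.4 in early and 33.5 in late. MORC3 had 6.64 FPKM in growing cells and 14.2 in OIS, a log2 difference of 0.99. PML itself stood between 16.4 and 21.4 FPKM in the 4 libraries. SENP1 and SUMO2, of the SUMO pathway, were lower in late by less than 2-fold (-0.88 and -0.81). The medians of the list were 0.18, 0.03 and -0.27 in OIS, early and late, and that of OIS turned to -0.05 after rescaling to the same sum.

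**Figure D4:**
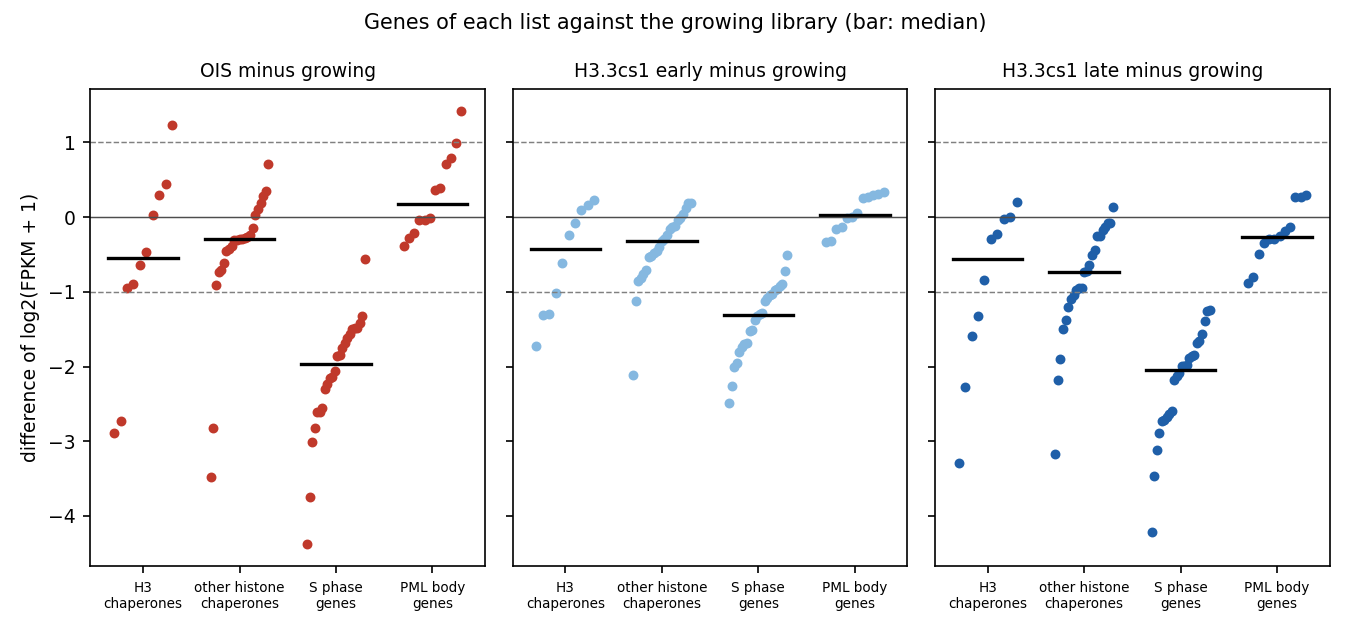
Difference from growing on the log2(FPKM + 1) scale for the genes of 4 lists in OIS, H3.3cs1 early and H3.3cs1 late, 1 point per gene, with a bar at the median and dashed lines at 2-fold. The medians of the replication genes lie at -1.96, -1.31 and -2.04, below those of the H3 chaperones (-0.55, -0.43 and -0.57), whose points spread from -3.29 to 1.23.

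For the 5 chaperones whose log2 level spanned at least 1 over the libraries, the genes with the most similar pattern were found by the root mean square difference of centred log2 values over the 4 libraries, among 8564 genes. For ASF1B these were GINS2 (0.105), CENPW (0.105) and CDKN2C (0.138). For CHAF1B they were RAD51AP1 (0.040), GMNN (0.090) and MCM2 (0.095). For CHAF1A they were POLD1 (0.014), EXOSC8 (0.042) and TMEM194A (0.056), for NASP they were WHSC1 (0.067), RECQL4 (0.068) and NCEH1 (0.070), and for DAXX they were NFKB2 (0.032), SPRED1 (0.033) and MIDN (0.048). POLD1 followed CHAF1A closely, at 13.1, 6.25, 5.80 and 4.61 FPKM across growing, OIS, early and late. NFKB2 shared the single high value of DAXX, at 18.4, 43.9, 14.5 and 14.9. With 4 points a near match is easily met among so many genes, and it is given as a description.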

How the data were processed

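Poly(A) RNA was measured by RNA-seq in 4 libraries, 1 per group, with groups taken from the labels. The deposited values are FPKM, made by the authors. Per the submitters' processing notes, the build hg19 and the tools Cufflinks 2.1.1, TopHat2 2.0.3 and Bowtie2 were used, in roles not stated. No source used here gives strand handling, multi-mapping or scaling between libraries. Header names in the deposited files are shifted by 1 column, so each file's sample was taken from its GEO record.

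Lines of a symbol were summed and 2310 loci without a name left out. The 12183 genes that reached 1 FPKM in any library were compared as log2(FPKM + 1), with 2-fold as the size rule and no test. The members and lists were chosen with earlier results of these data known. Named genes are the members, 4 genes of each other list with the largest differences from growing, H3.3 genes, UBN2, RBBP4, HJURP and the 3 genes most alike. Of the listed genes, TONSL, DNAJC9, COL3A1 and CD68 had only joined lines and gave no value. The number of fragments was estimated from the smallest step of genes with 1 annotated transcript (GENCODE 29). ASF1A and ASF1B were aligned as transcripts. Protein sequences were not used here. Python 3.11.15, pandas 2.3.3, scipy 1.17.1 and Biopython 1.88 were used. There were 8 planned processing alternatives, and 1 more alternative (shortened E2F words) was chosen after seeing the data.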

Additional observations from a re-analysis of the deposited data

How the results depend on the processing

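Of the 8 alternatives, 3 (no filter, a filter at 5 FPKM and the highest line of a symbol) could not move a chaperone, since each exceeded 5 FPKM in some library and had 1 line above 0. Under the other 5, 250 differences of single chaperones were labelled again, and 221 kept their direction and their side of the threshold. Of the others, 19 passed it, 3 no longer did, and 7, none of them past 2-fold, changed sign. The size rule of 1.5-fold, 1 of these 5, leaves every difference as it is and only lowers the threshold. It gave 40 of the 221 and 10 of the 19, and it could give no change of sign and no lost call. The medians of the 10 chaperones kept their sign. Rescaling to the same sum moved them from -0.55 to -0.76 in OIS and from -0.43 to -0.18 in early, both against growing. The same rescaling moved late against early from -0.30 to -0.52 and OIS against late from 0.37 to 0.17. Quantile normalization moved early against growing to -0.31 and OIS against late to 0.24. After rescaling to the same sum, 4 chaperones were lower and 0 higher in OIS against growing (in place of 2 and 1), 2 were lower in late against early (in place of 1), and 1 was lower in OIS against late (in place of 0). In early against growing, 3 were lower (in place of 4) after that rescaling and after centring on the median of all genes. In OIS against growing, 3 were lower (in place of 2) with a pseudocount of 0.1 and with quantile normalization. With a pseudocount of 0.1, 2 were lower in late against early, and in OIS against late 2 were higher and 1 lower (in place of 1 and 0). With a size rule of 1.5-fold, 5 were lower in OIS against growing (17.3% of all genes), 5 in early (10.5%) and 5 in late (12.7%). That rule gave 3 lower and 1 higher in late against early (12.7% and 12.9%). In OIS against late it gave 2 higher and 1 lower (23% and 17.8%). The E2F words were found in 1 promoter, and in 3 with shortened words. No paired analysis was possible because each group has 1 library. Rescaling to the same sum sets the named loci equal, which held different shares of the libraries. Depth limits ASF1B and CHAF1B in OIS and late, where fragments were few.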

Other observations

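The other chaperones that fell in late were chosen for mention after their values were seen. SUPT16H and SSRP1, the subunits of FACT, which handles nucleosomes during transcription and replication, stood at 12.6 and 19.7 FPKM in late against 27.9 and 52.9 in growing (log2 differences of -1.09 and -1.38). In OIS they stood at 22.8 and 47.8 FPKM (-0.28 and -0.14). SET, a histone chaperone and phosphatase inhibitor, stood at 101, 77.0, 76.5 and 48.4 FPKM across growing, OIS, early and late, and fell in late (-1.04). NPM3, of the nucleoplasmin family, stood at 30.0, 30.6, 20.6 and 12.4 FPKM in the same order, and fell in late (-1.21). SSRP1, NPM3 and ANP32E were the 3 of the 23 that were at least 2-fold higher in OIS than in late (1.23, 1.24 and 1.21), a count that became 1 when libraries were rescaled to the same sum, 2 with quantile normalization, 5 with a pseudocount of 0.1 and 10 with a size rule of 1.5-fold. Of all genes compared, 11.2% were at least 2-fold higher in OIS than in late, and 23% at least 1.5-fold higher. The count of 3 is thus near the share of all genes.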
